A study of Thermothelomyces thermophilus ATCC 42464 with 24 samples.

Results

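cre-1 (Mycth_2310085) is the gene of the carbon catabolite repressor of Myceliophthora thermophila, a cellulose-degrading filamentous fungus of high temperatures. It was followed as 1 gene of 9110 in a table of RNA-seq read counts, chosen by its gene ID and by none of its values, across 12 groups with 23 libraries. From cultures on 2% glucose at 45 °C, collected after 24 h, came 2 libraries each of strains labelled Δcre-1, ΔlaeA, Δgrf-1 and Δgrf-3, 1 usable library labelled Δgrf-2, and 2 libraries of the wild type (WT). From cultures on 2% Avicel (microcrystalline cellulose) came 2 libraries each of the strain labelled ΔlaeA and of WT at 2, 4 and 6 d. The study made its strains by replacing a coding region with a drug resistance cassette, and it examined cre-1 as one of the regulator genes downstream of the putative methyltransferase LaeA. How many transformants stood behind a strain is not given in the sources used here.

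CRE-1, called CreA in Aspergillus, is a zinc finger protein that binds promoters and represses genes for the use of other carbon sources while glucose is at hand. Cellulases, amylases, gluconeogenic enzymes and sugar transporters are among the genes known to be under such repression in filamentous fungi. Cellulose itself has to be cut to soluble cellodextrins before the fungus can take it up, and activators such as CLR-1, CLR-2 and XlnR switch on the genes for this.

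Libraries held 18114947 to 33937501 counts, of which 5382 to 35394 fell on cre-1. Counting error was small beside the gaps between the WT replicates, but the counting intervals (95%, Wilson) of the 2 replicates overlapped in the strain labelled Δgrf-1 and in ΔlaeA at 4 d and 6 d. Levels are CPM (counts per 1000000 counts, with library totals scaled by TMM), which are not divided by gene length and were compared only within a gene. A call required both an adjusted p (Benjamini-Hochberg) under 0.05 in edgeR's quasi-likelihood test and a log2 fold change of 1 or more in size. The labels name no separate cultures for the replicates. The paper calls those of the Avicel libraries biological replicates, without a description of the cultures behind them. The p-values cover no more than the variation among these libraries. Of the deleted genes, laeA (Mycth_2294559) was higher in all 8 libraries labelled ΔlaeA (222 to 304 CPM) than in the 8 WT libraries (7.43 to 128 CPM). grf-1 had 195 and 192 CPM in the libraries labelled Δgrf-1, against 111 and 187 CPM in WT on glucose, and grf-3 90.4 and 65.6 CPM in those labelled Δgrf-3, against 61.9 and 53.7 CPM, differences that did not pass (edgeR adjusted p = 0.135 and 0.0637). grf-2 was lower in its own strain, with 107 CPM in the single library labelled Δgrf-2, against 183 and 179 CPM in WT, and did not reach the fold threshold (-0.75). This was not particular to that strain. On glucose grf-2 averaged 80.5 CPM in ΔlaeA, 92.2 CPM in Δgrf-3, 101 CPM in Δcre-1 and 107 CPM in Δgrf-1. The levels of laeA, and of cre-1 in its own strain, were higher than in WT, and those of the grf genes do not show the deletions. The paper reports a PCR check of the transgene in its putative transformants. By its account the cassette was joined to non-coding sequence from both sides of the gene. Whether any label is wrong was not tested. Strains carry the names of their labels throughout, and directions hold only as far as the labels do.

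The libraries labelled Δcre-1 held 2215 and 2319 CPM of cre-1, against 439 and 738 CPM in those of WT on glucose. The gene named in the label was thus higher, with no overlap between the groups, by 1.95 ± 0.23 on the log2 scale (± SE, as for all log2 values below, edgeR adjusted p = 2.74e-06). In that comparison 15.4% of 8827 genes tested were called higher and 20.2% lower, and 17.9% changed by more than cre-1 in either direction. The size depended on scaling. TMM multiplied the totals of these libraries by factors of 0.744 and 0.739, and with unscaled totals cre-1 stood at 1649 and 1713 counts per 1000000, against 499 and 817 in WT. On that scale the difference was 1.35 and still called, while the median of all genes lay at -0.69. A count per gene does not tell from where in the locus its reads came, and no sequence of the strain was examined here.

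**Figure D1:**
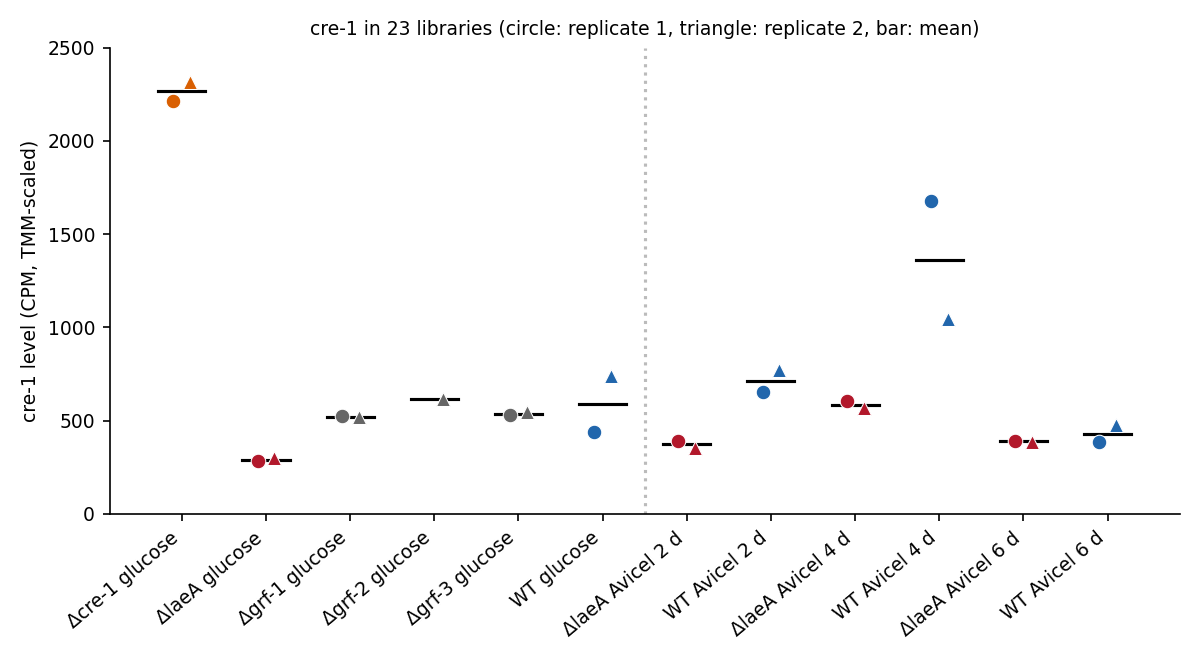
Level of cre-1 (CPM, TMM-scaled) in each of 23 libraries, by the strain in the label and the growth condition, with glucose left of the dotted line and Avicel right of it. Circles are replicate 1, triangles replicate 2 and bars group means. The libraries labelled Δcre-1 are highest, at 2215 and 2319 CPM, and those of WT at 4 d on Avicel are next, at 1679 and 1045 CPM.

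The group means of cre-1 ran in this order. The libraries labelled Δcre-1 on glucose came first, at 2267 ± 72.9 CPM (mean ± SD, n = 2 here and below unless given), followed by WT on Avicel at 4 d with 1362 ± 448 CPM and at 2 d with 712 ± 82.1 CPM. The single library labelled Δgrf-2 had 617 CPM, and its share of unscaled counts was 676 per 1000000 with a 95% Wilson interval of 665 to 687, which covers counting error only. WT on glucose followed with 588 ± 212 CPM and ΔlaeA on Avicel at 4 d with 586 ± 29.0 CPM. The strains labelled Δgrf-3 and Δgrf-1 on glucose stood at 538 ± 8.33 and 520 ± 3.04 CPM. The lowest places were taken by WT on Avicel at 6 d (429 ± 63.6 CPM), ΔlaeA at 6 d (389 ± 2.96 CPM), ΔlaeA at 2 d (372 ± 27.5 CPM) and ΔlaeA on glucose (291 ± 12.9 CPM). Neighbours in this order whose means lay no farther apart than the larger of their SDs were Δgrf-2 and WT on glucose, WT on glucose and ΔlaeA at 4 d, WT and ΔlaeA at 6 d, and ΔlaeA at 6 d and 2 d. WT on glucose spread so widely that the ranges of its libraries held those of all 3 grf strains and of ΔlaeA at 4 d.

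Without the strain labelled Δcre-1, the means of cre-1 spanned 4.68-fold over 11 groups. Over the 4 WT groups they spanned 3.17-fold, and over the 4 groups labelled ΔlaeA 2.01-fold. cre-1 was tested in 17 comparisons, of which 5 were called, 4 passed the adjusted p but missed the fold threshold, and 8 did not pass.

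**Figure D2:**
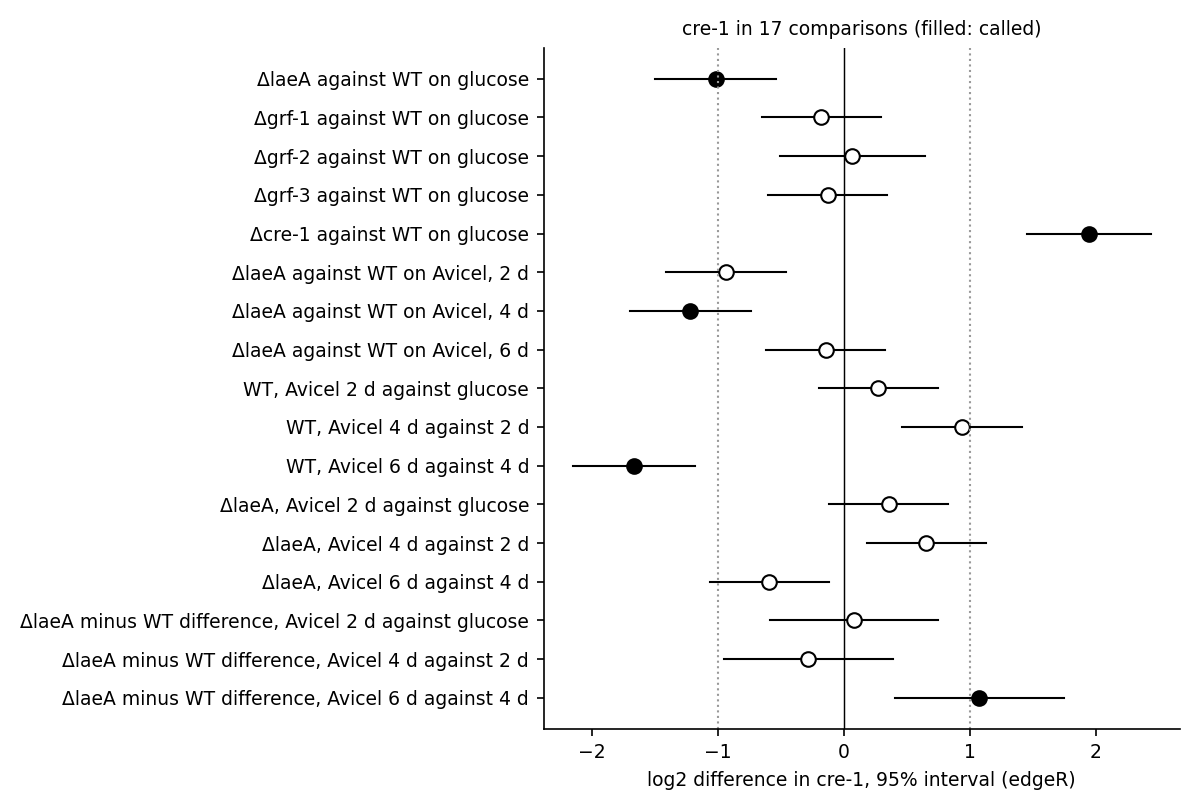
Difference in cre-1 on the log2 scale for 17 comparisons, as points with 95% intervals from the edgeR fit, filled where called. Dotted lines mark the fold threshold of 1 in either direction. The lowest point is the fall in WT between 4 d and 6 d on Avicel (-1.67) and the highest the strain labelled Δcre-1 against WT (1.95).

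On glucose cre-1 had 282 and 300 CPM in the libraries labelled ΔlaeA, against 439 and 738 CPM in WT. The groups did not overlap, but the WT libraries were themselves 1.68-fold apart. The fold change of 0.494 fell on the threshold itself (log2 -1.02 ± 0.22, edgeR adjusted p = 0.00322), in a comparison with 6.28% of genes called higher and 5.60% lower. Without WT replicate 2 it was -0.59 with adjusted p = 0.0814, and without replicate 1 labelled ΔlaeA -0.97 with adjusted p = 0.0405, so that neither was called. The study picked cre-1 partly for being lower here, so this comparison is not independent evidence of its direction.

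In the 3 grf strains, which lack genes of growth regulatory factors by their labels, cre-1 was not called. It had 522 and 518 CPM in the libraries labelled Δgrf-1, and the log2 difference from the same WT libraries was -0.18, with a 95% interval of -0.65 to 0.29 (edgeR adjusted p = 0.570). The libraries labelled Δgrf-3 had 532 and 544 CPM and gave -0.13 (-0.60 to 0.34, adjusted p = 0.696). For the 1 library labelled Δgrf-2 the fit gave 0.07 (-0.51 to 0.64, adjusted p = 0.902), a fit that gives the lone library the spread of the other groups. In these 3 comparisons 5.02% and 9.99% of genes (Δgrf-1), 5.55% and 7.99% (Δgrf-3), and 1.68% and 3.40% (Δgrf-2) were called higher and lower. Signs turned with single WT libraries. Without WT replicate 2, Δgrf-1 gave 0.25 and Δgrf-3 0.29, and without WT replicate 1, Δgrf-2 gave -0.26, none of them called.

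By the paper's account the Avicel was used up after 6 d, and secreted protein peaked later in ΔlaeA than in WT. In WT the highest level of cre-1 on Avicel was found at 4 d, the middle day sampled. Its libraries held 654 and 770 CPM at 2 d, 1679 and 1045 CPM at 4 d, and 384 and 474 CPM at 6 d. At 2 d the gene did not differ from glucose by the test, with 439 and 738 CPM there (0.27, 95% interval -0.20 to 0.75, edgeR adjusted p = 0.361), while 9.99% of genes were called higher and 5.64% lower. That value was -0.05 without glucose replicate 1 and 0.70 (adjusted p = 0.0370, not called) without glucose replicate 2. At 4 d both libraries lay above both of 2 d. The difference of 0.94 ± 0.22 passed the adjusted p (0.00357) and missed the fold threshold, in a step where 9.18% of genes were called higher and 9.86% lower. Between 4 d and 6 d cre-1 fell by 1.67 ± 0.23 (adjusted p = 3.64e-05), when 12.4% of genes were called higher and 7.52% lower, and 10.5% of genes changed by more in either direction. The fall was called with each of the 23 libraries left out in turn, at -1.97 to -1.30. The step to 4 d was called without WT replicate 2 of 2 d (1.06) and without replicate 2 of 4 d (1.24), and gave 0.56 (adjusted p = 0.0836) without replicate 1 of 4 d.

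In the libraries labelled ΔlaeA cre-1 was also highest at 4 d. They had 392 and 353 CPM at 2 d, 606 and 565 CPM at 4 d, and 391 and 387 CPM at 6 d, with 282 and 300 CPM on glucose. From glucose to 2 d the difference was 0.36 ± 0.22 and did not pass (edgeR adjusted p = 0.246, with 5.19% of genes called higher and 6.76% lower). The steps to 4 d (0.65 ± 0.22, adjusted p = 0.0228) and to 6 d (-0.59 ± 0.22, adjusted p = 0.0372) passed the adjusted p and missed the fold threshold, as groups that did not overlap. With library totals only neither passed (0.41, adjusted p = 0.121, and -0.36, adjusted p = 0.165), nor did either without any 1 of the 4 libraries compared (adjusted p up to 0.126 and 0.129). In the first of these steps 13.4% of genes were called higher and 10.2% lower, and in the next 12.6% higher and 13.0% lower.

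Set against WT on the same day, cre-1 in the libraries labelled ΔlaeA had 392 and 353 CPM, against 654 and 770 CPM in WT at 2 d. This difference of -0.94 ± 0.22 passed the adjusted p (0.00410) and missed the fold threshold, with 4.80% of genes called higher and 10.7% lower, and it was called (-1.01) without replicate 1 labelled ΔlaeA of 2 d. At 4 d the libraries labelled ΔlaeA had 606 and 565 CPM, against 1679 and 1045 CPM in WT, and cre-1 was called lower at -1.22 ± 0.23 (adjusted p = 0.000538, with 9.17% of genes called higher and 9.95% lower). Without WT replicate 1 of 4 d the value was -0.84 (adjusted p = 0.0162), below the fold threshold. At 6 d the libraries labelled ΔlaeA had 391 and 387 CPM, against 384 and 474 CPM in WT, and both values lay within the range of WT. The difference of -0.14 (95% interval -0.62 to 0.33, adjusted p = 0.685) did not pass, while 2.41% of genes were called higher and 7.95% lower, and it was 0.04 without WT replicate 2 of 6 d. cre-1 was lower in every library labelled ΔlaeA than in every WT library on glucose and at 2 d and 4 d, and overlapped at 6 d.

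Whether these differences changed between conditions was tested as an interaction. The difference between ΔlaeA and WT moved by 0.08 ± 0.31 between glucose and 2 d (edgeR adjusted p = 0.889, with 3.55% and 8.90% of genes called up and down). Between 2 d and 4 d it moved by -0.28 ± 0.31 (adjusted p = 0.519, with 12.9% and 10.7% called). Both signs turned without 1 WT library, to -0.34 without glucose replicate 2 and to 0.05 without replicate 1 of 4 d. Between 4 d and 6 d it moved by 1.07 ± 0.32 (95% interval 0.40 to 1.74, adjusted p = 0.0150) and was called, where 11.1% of genes were called in that direction and 12.8% in the other. Expressed per strain, cre-1 changed by -0.59 in the libraries labelled ΔlaeA and by -1.67 in WT. The call rested on single libraries. It was lost without replicate 1 of WT at 4 d (0.69, adjusted p = 0.107), without replicate 1 of WT at 6 d (0.93, adjusted p = 0.0549) and without replicate 2 labelled ΔlaeA at 4 d (1.04, adjusted p = 0.0562).

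The replicates of cre-1 agreed closely in most groups, and the exceptions were WT libraries. In WT on glucose replicate 2 lay 1.68-fold above replicate 1 (738 and 439 CPM), a gap exceeded by 6.65% of genes in that pair. In WT on Avicel at 4 d replicate 1 lay 1.61-fold above replicate 2, a gap exceeded by 9.60% of genes. In the other 9 pairs the libraries were at most 1.23-fold apart. Other genes moved within the same pairs. In WT on glucose grf-1 (Mycth_37566), a growth regulatory factor gene, had 111 CPM in replicate 1 and 187 CPM in replicate 2, a gap like that of cre-1. In WT at 4 d the replicate with more cre-1 RNA had less RNA of the activator genes, with 201 and 641 CPM for xlnR (Mycth_2310145), 88.6 and 289 CPM for clr-2 (Mycth_38704) and 223 and 382 CPM for clr-1 (Mycth_2298863) in replicates 1 and 2. The cellodextrin transporter gene cdt-2 (Mycth_114107) had 348 and 3015 CPM there. A list of 22 glycoside hydrolase genes, which is only part of the family in this fungus, was used here and below. Of these 22, 4 were higher in replicate 1 and 17 in replicate 2 of this pair. Of all 8827 genes tested, 4151 were higher in replicate 1 and 4645 in replicate 2. The labels give no difference between these libraries beyond the replicate number, and what set them apart was not tested.

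**Figure D3:**
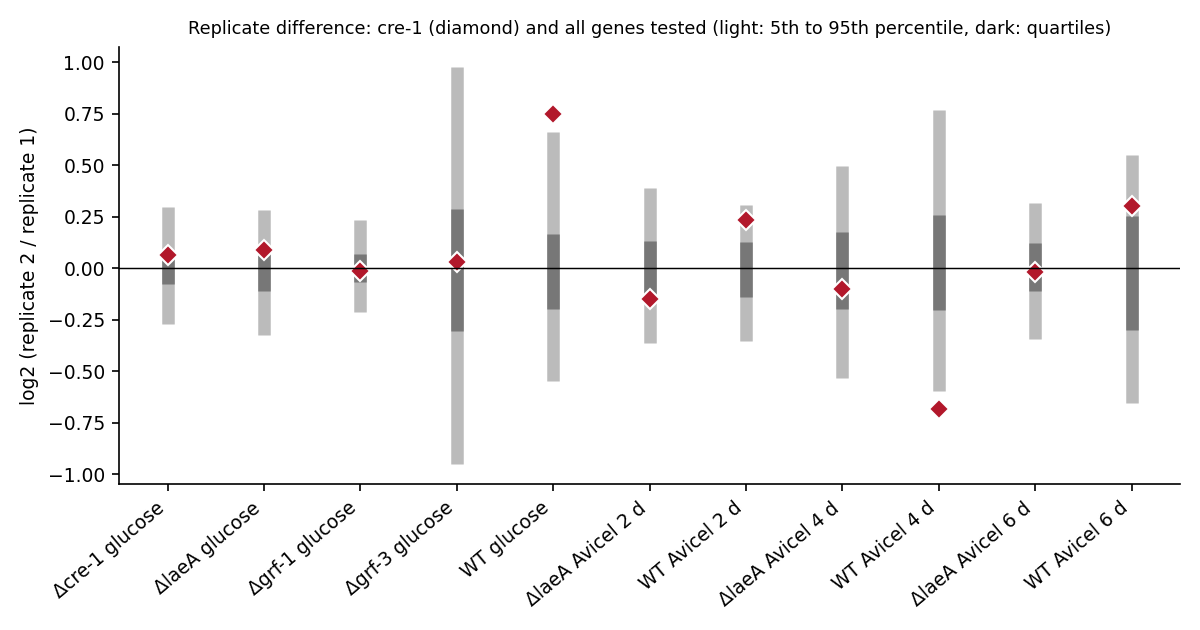
Difference between replicate 2 and replicate 1 on the log2 scale in each group with 2 libraries, for cre-1 (diamonds) and for all genes tested (light bars from the 5th to the 95th percentile, dark bars between the quartiles). cre-1 lies outside the light bar in WT on glucose (0.75) and in WT on Avicel at 4 d (-0.68).

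Genes of carbon use, regulators and enzymes were read in the strain labelled Δcre-1, where cre-1 RNA itself was higher. Of 7 genes of carbon use, 6 rose and 1 fell, with a median log2 change of 3.82 against -0.10 over all genes tested, of which 15.4% rose and 20.2% fell. These genes came from the study's text and from an earlier look at these data, so the count is no independent evidence. gla1 (Mycth_72393), the glucoamylase that frees glucose from starch, reached 15853 and 15235 CPM there, against 38.4 and 36.3 CPM in the WT libraries. pck (Mycth_2315623), phosphoenolpyruvate carboxykinase of gluconeogenesis, had 1213 and 1237 CPM, against 36.5 and 53.0 CPM in WT. For cdt-2, which carries cellulose breakdown products into the cell, the values were 214 and 212 CPM, against 16.7 and 13.5 CPM in WT. For none of these 3 genes did the groups overlap. Phosphoglycerate kinase (Mycth_2316240) of glycolysis and fructose-1,6-bisphosphatase (fbp1, Mycth_2306943) of gluconeogenesis rose as well, by 3.10 ± 0.15 and 2.75 ± 0.49. Levels of pck, fbp1 and the kinase were not higher in that strain alone. On glucose pck averaged 44.8 CPM in WT, 600 CPM in ΔlaeA, 849 CPM in Δgrf-1 and 1090 ± 764 CPM in Δgrf-3. The Δgrf-2 library had 669 CPM. In the same order fbp1 had 29.7, 79.0, 216, 241 ± 197 and 135 CPM, and the kinase 721, 2073, 1603, 1773 and 1226 CPM. gla1 and cdt-2 lay below WT in those other strains. The paper reports pck and fbp1 as induced in all its grf mutants.

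The glucose transporter genes went opposite ways there. Mycth_112491 had 3483 and 3513 CPM in libraries with that label, against 136 and 124 CPM in WT, while Mycth_98222 had 2.16 CPM on average, against 15.4 CPM in WT. Mycth_98222 also lay below WT in Δgrf-1 (3.75 CPM), Δgrf-3 (4.44 CPM) and the Δgrf-2 library (4.42 CPM), but above it in ΔlaeA (97.3 CPM). In the same order Mycth_112491 had 270, 184, 91.6 and 420 CPM, against 130 CPM in WT. Of 14 genes described as sugar transporters in a shortened supplementary list, 4 rose and 4 fell in Δcre-1, with a median of -0.33, where 15.4% of all genes rose and 20.2% fell. Mycth_108924 rose by 4.91 ± 0.58 to 806 ± 10.99 CPM, against 26.9 ± 6.05 CPM in WT, and Mycth_103797 had 0.196 ± 0.0922 CPM, against 15.7 ± 3.52 CPM in WT. Of 22 genes described as glycoside hydrolases, the enzymes that cut polysaccharides, 1 rose and 7 fell, with a median of -0.58, beside the same 15.4% and 20.2% of all genes. Mycth_110061, of family 16, had 10.1 ± 3.08 CPM in those libraries, against 232 ± 22.6 CPM in WT. Mycth_111088 had 3.21 ± 0.745 CPM, against 11.9 ± 2.33 CPM. Its description names a glycoside hydrolase family 61I protein and, in brackets, a cellobiose dehydrogenase, and which of them it encodes was not tested. The call of Mycth_111088 was lost without any 1 of the 4 libraries compared or either library labelled Δgrf-3, at -2.14 to -1.66. For the same 22 genes, 13 rose in WT at 2 d on Avicel against glucose, with a median of 2.46, where 9.99% of all genes rose.

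Of 11 other regulator genes, 1 rose and 3 fell in the libraries labelled Δcre-1, with a median of -0.84. With 15.4% of all genes called higher and 20.2% lower, these counts are near the background. amyR (Mycth_2301920), the orthologue of Neurospora col-26, had 445 and 454 CPM, against 93.2 and 81.0 CPM in WT. The genes that fell were the LaeA-like laeB (Mycth_2295350, -2.49 ± 0.32), the orthologue of Neurospora NCU10006 (Mycth_90344, -3.39 ± 0.31) and laeA (-1.08 ± 0.19). The NCU10006 orthologue, at 77.3 CPM in WT, also had 33.6 CPM in Δgrf-1, 46.9 CPM in Δgrf-2 and 26.9 CPM in Δgrf-3. In the same order laeA had 12.7, 12.8 and 10.9 CPM, against 20.3 CPM in WT, and laeB 189, 188 and 170 CPM, against 205 CPM. Scaled by library totals only, 7 of the 11 fell in Δcre-1 in place of 3, the grf genes and clr-2 now among them. Without WT replicate 2 laeA gave -0.73 and was not called, and without replicate 1 clr-1 (1.01) was called higher and grf-1 (-1.23) lower. clr-1, clr-2 and xlnR, which activate cellulase and xylanase genes, were not called, at 0.89 ± 0.23, -0.92 ± 0.44 and 0.09 ± 0.35, nor was hac1 (Mycth_2310995) of the unfolded protein response, at 0.79 ± 0.23. Of these, clr-1 and hac1 missed only the fold threshold. The sign of xlnR turned with library totals only (-0.51) and without WT replicate 2 (-0.18). grf-1, grf-2 (Mycth_2089183) and grf-3 (Mycth_2309668) gave -0.90 ± 0.19, -0.84 ± 0.16 and -0.45 ± 0.17, which passed the adjusted p and missed the fold threshold.

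**Figure D4:**
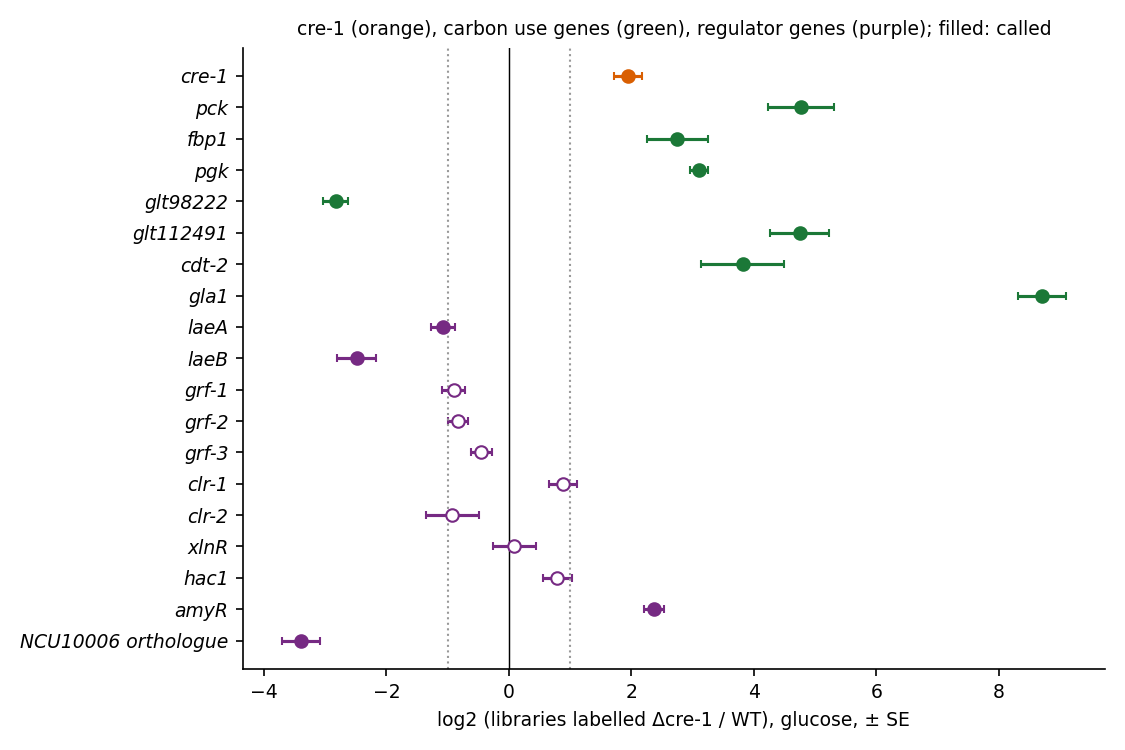
Difference between the libraries labelled Δcre-1 and WT on glucose on the log2 scale (± SE, edgeR) for cre-1, 7 genes of carbon use and 11 regulator genes, filled where called. Of the carbon use genes, named glt98222 and glt112491 for the transporters Mycth_98222 and Mycth_112491, 6 lie right of the fold threshold and 1 left of it.

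Over the 4 conditions with both strains, laeA RNA in WT was lowest on the day cre-1 RNA was highest, and highest on the day cre-1 RNA was lowest. laeA averaged 20.3 CPM on glucose, 10.2 CPM at 2 d, 8.66 CPM at 4 d and 111 CPM at 6 d in WT, while cre-1 averaged 588, 712, 1362 and 429 CPM. In the libraries labelled ΔlaeA, laeA stayed between 224 and 293 CPM on average, and cre-1 was at its highest there at 4 d too. At 6 d WT was called higher in laeA than at 4 d (3.69 ± 0.20, edgeR adjusted p = 4.20e-09), while 4 d did not differ from 2 d by the test (-0.25, adjusted p = 0.316). grf-1 was lowest at 6 d in WT like cre-1, with means of 149 ± 53.9 CPM on glucose, 186 ± 19.8 CPM at 2 d, 194 ± 22.6 CPM at 4 d and 72.2 ± 0.597 CPM at 6 d. It fell between 4 d and 6 d (-1.43 ± 0.19, adjusted p = 3.23e-05), while neither 2 d against glucose (0.32, adjusted p = 0.199) nor 4 d against 2 d (0.06, adjusted p = 0.823) passed. Its difference between ΔlaeA and WT moved between 4 d and 6 d by 1.03 ± 0.27 (adjusted p = 0.00766), in the same direction as that of cre-1. It stood at the fold threshold and was not called with library totals only (0.99), with a filter of 10 CPM in 2 libraries (0.97), without WT replicate 2 of 4 d (0.90) or without replicate 1 labelled ΔlaeA of 4 d (0.95).

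Of the activator genes, clr-1 moved with cre-1 in both steps in WT, and clr-2 and xlnR were called only in the fall. clr-1 rose between 2 d and 4 d (1.19 ± 0.23) and fell between 4 d and 6 d (-1.33 ± 0.23, edgeR adjusted p = 0.000266). Between 2 d and 4 d clr-2 went from 166 to 189 ± 141 CPM and xlnR from 452 to 421 ± 311 CPM. In that step hac1 went from 1377 to 1026 ± 538 CPM and cdt-2 from 3936 to 1682 ± 1886 CPM. Of the 11 regulator genes, 1 was called higher and 1 lower there, with 9.18% and 9.86% of all genes. Between 4 d and 6 d clr-2 (-4.98 ± 0.50), xlnR (-4.33 ± 0.40), hac1 (-1.44 ± 0.24) and cdt-2 (-5.92 ± 0.75) also fell. In the fit of only the groups compared clr-2, xlnR and cdt-2 did not pass (adjusted p = 0.0588, 0.0771 and 0.149). Without WT replicate 2 of 4 d, the one with less cre-1 RNA, the calls of clr-1 ended in both steps (0.75 and -0.89), as did that of hac1 (-0.77), and cdt-2 gave -3.64, clr-2 -3.88 and xlnR -3.26. In all, 5 of the 11 regulator genes fell in that step and 3 rose, and 10 of the 22 glycoside hydrolase genes fell and 5 rose, where 7.52% of all genes fell and 12.4% rose. At 4 d the libraries labelled ΔlaeA were lower than WT in cre-1 and higher in clr-2 (1110.5 ± 145 CPM, against 189 ± 141 CPM) and xlnR (2054 ± 122 CPM, against 421 ± 311 CPM), and 9 of the 22 glycoside hydrolase genes were called higher and 2 lower, where 9.17% of all genes were called higher and 9.95% lower. With single libraries left out, clr-2 ran from 1.94 to 3.65 and xlnR from 1.68 to 3.35, lowest without WT replicate 1. At 2 d cre-1 was also lower in those libraries, at -0.94, but 13 of the 22 were called lower (10.7% of all genes), and clr-2 and xlnR were not called (-0.87 ± 0.42 and 0.03 ± 0.34, with xlnR from -0.04 to 0.17 with single libraries left out). The mean of hac1 was lower there at 2 d (374 ± 13.5 CPM, against 1377 ± 44.2 CPM in WT) and higher at 4 d (1431 ± 168 CPM, against 1026 ± 538 CPM). Its libraries overlapped at 4 d, with 1549 and 1312 CPM, against 645 and 1406 CPM in WT. The mean of clr-1 was higher at 2 d (170 ± 0.606 CPM, against 132 ± 25.9 CPM) and at 4 d (498 ± 19.2 CPM, against 303 ± 113 CPM). The differences of hac1 at 4 d and of clr-1 on both days stayed below the fold threshold.

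**Figure D5:**
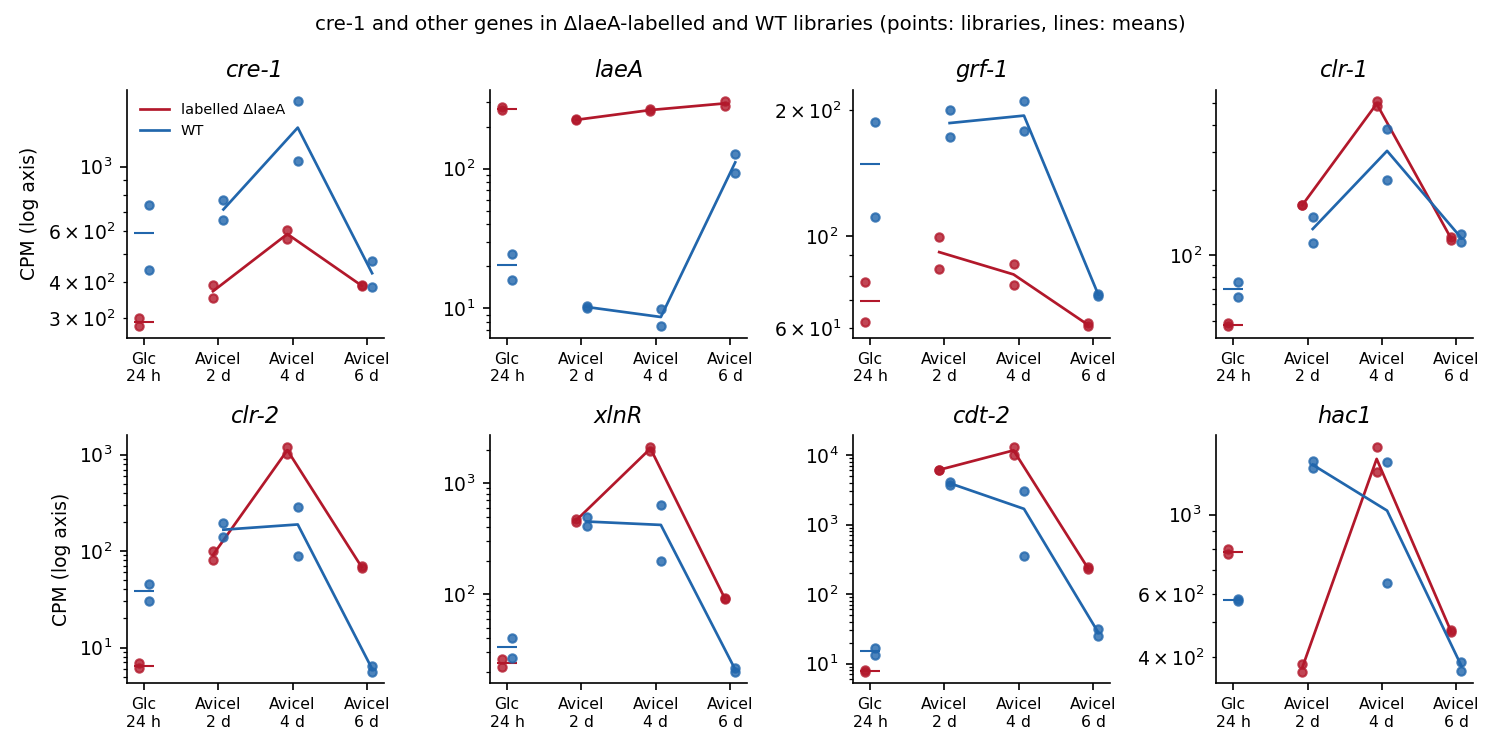
Levels (CPM, log axes that differ between panels) of cre-1 and 7 other genes in libraries labelled ΔlaeA (red) and of WT (blue) on glucose at 24 h and on Avicel at 2, 4 and 6 d. Points are libraries, dashes and lines are means. In WT, cre-1 averages 1362 CPM at 4 d and 429 CPM at 6 d, while laeA averages 8.66 and 111 CPM.

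The genes beside cre-1 in the reference annotation were read next. Between cre-1 and its protein-coding neighbours lie a tRNA gene on each side, not analysed here, and no annotated gene overlaps it. Mycth_2310081, on one side, had 771 and 753 CPM in libraries of the label Δcre-1, against 442 and 537 CPM in WT (0.64 ± 0.16, edgeR adjusted p = 0.00222), and Mycth_2310088, on the other, 135 and 141 CPM, against 70.3 and 98.0 CPM (0.72 ± 0.18, adjusted p = 0.00240). Both lay above WT without overlap and missed the fold threshold. With library totals only these differences were 0.04 and 0.12, so they depended on the scaling. Among genes with counts, next to Mycth_2310081 stands the glucose transporter gene Mycth_98222, which fell there by 2.83 ± 0.21, and next to Mycth_2310088 stands Mycth_2129775, not called at 0.83 ± 0.51 (1.70 and called without WT replicate 2). On Avicel Mycth_2310081 also had its highest mean at 4 d, with 1419 CPM in WT, but was higher there in the libraries labelled ΔlaeA (2045 CPM), where cre-1 was lower. Mycth_98222 rose in WT between 4 d and 6 d by 3.51 ± 0.18, while cre-1 fell.

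Likeness to cre-1 was measured as Pearson r of group means of log2(CPM + 1) over the 11 groups other than Δcre-1, for 7194 genes with a mean of at least 10 CPM. These groups share strains, library scaling and a WT peak at 4 d, so r is a description. Over all ranked genes the median r was 0.01, and the 5th and 95th percentiles were -0.57 and 0.61. The highest r belonged to Mycth_2297751 (0.95), Mycth_2300388 (0.94), Mycth_79327 (0.93), Mycth_95293 (0.93) and Mycth_2311919 (0.89), all with their highest mean in WT at 4 d. Mycth_2297751 spanned only 192 to 286 CPM over these groups, whereas Mycth_95293 spanned 3.45 to 89.7 CPM. That highest mean of Mycth_95293 came from 20.1 and 159 CPM in WT replicates 1 and 2 of 4 d, so that it rested on the replicate with less cre-1 RNA. The lowest r belonged to Mycth_2306919 (-0.94), Mycth_2081821 (-0.90), Mycth_2298049 (-0.90), Mycth_2301160 (-0.88) and Mycth_2311602 (-0.88), all lowest in WT at 4 d and highest in ΔlaeA on glucose. By Spearman's rho only 1 of the 5 highest stayed among the 5 highest, and with Δcre-1 included 0 did.

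Of the regulators, grf-1 was most like cre-1 (r = 0.73, exceeded by 1.68% of genes). It was followed by hac1 (0.55, exceeded by 7.51%), grf-2 (0.54, by 8.28%) and clr-2 (0.50, by 10.05%), all below the 95th percentile of all genes. laeA stood at the other end (r = -0.71, with 98.7% of genes above it), with laeB (-0.66) near it. The 11 groups include those labelled ΔlaeA, where laeA averaged 224 to 293 CPM, against 8.66 to 111 CPM in WT, and that labelled Δgrf-1. The r of laeA and of grf-1 thus include differences between labels that name these genes. Without those groups r was not computed. Among the genes of carbon use r ran from -0.44 for Mycth_98222 to 0.38 for gla1, within the range of most genes. grf-3, clr-1, xlnR, amyR and the NCU10006 orthologue lay between 0.09 and 0.39.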

How the data were processed

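The authors mapped reads with TopHat2 2.0.8b, counted those on unique exons with HTSeq-count and deposited whole counts. HTSeq is 0.5.4p2 in the submitters' processing notes and another version in the methods. For genome build and strand setting, the sources used here give nothing. Of 24 titled samples 23 had counts. The 1 remaining per-sample column (Δgrf-2 replicate 1) holds values that are not whole (0 of 8865 above 0) and was left out, as were 2 lines without a gene. Counts were fitted in edgeR 4.0.16 (R 4.3.3), with TMM, filterByExpr, robust quasi-likelihood, all 23 libraries and 1 coefficient per group, leaving 11 residual degrees of freedom. Standard errors are the log2 change over the root of F. Tests were checked on simulated counts.

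Named were cre-1, the lists of carbon use genes (7) and regulators (11), up to 3 genes each of the glycoside hydrolase (22) and sugar transporter (14) lists by size of a called change in Δcre-1 at 10 CPM or more, genes beside cre-1, and the 5 highest and 5 lowest by likeness. Of gene IDs, 9087 matched the reference ASM22609v1, used only for names and order. These choices were made with earlier results of these data known. Alternatives were DESeq2 1.42.0 and its size factors, unscaled totals, other filters, a fit without robust estimation, subsets of groups, a replicate block, and each library left out.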

Additional observations from a re-analysis of the deposited data

Results flagged for a closer look

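The fall of cre-1 on Avicel between 4 d and 6 d differed between the strains by a test of the difference itself. It was -0.59 ± 0.22 in the libraries labelled ΔlaeA and -1.67 ± 0.23 in WT, so that the difference between them moved by 1.07 ± 0.32 on the log2 scale (± SE, edgeR quasi-likelihood, adjusted p = 0.0150). Both libraries of each strain were lower at 6 d than both at 4 d. The paper states that the Avicel was used up after 6 d and that secreted protein peaked later in ΔlaeA than in WT. Whether the same day was the same stage of growth in both strains was not tested. Over the alternatives other than leaving out a library the value stayed between 1.02 and 1.08, with adjusted p from 0.00514 to 0.0351. With a library left out it ran from 0.69 to 1.38, with adjusted p from 0.00217 to 0.107. The pair of WT libraries at 4 d, 1679 and 1045 CPM, were farther apart than any other pair on Avicel, and the part of that spread in the result was not tested beyond these values.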

How the results depend on the processing

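For cre-1, every comparison kept its direction under the alternatives other than leaving out a library, and 1 call ended, that of ΔlaeA on glucose without the low-count filter (-0.999, edgeR adjusted p = 0.00445). With unscaled totals Δcre-1 against WT gave 1.35. Without single libraries in turn, called or nearly called values ran from -1.34 to -0.59 (ΔlaeA on glucose), -1.01 to -0.81 (ΔlaeA against WT at 2 d), -1.52 to -0.84 (at 4 d), 0.56 to 1.24 (WT, 4 d against 2 d) and 0.69 to 1.38 (ΔlaeA minus WT, 6 d against 4 d). ΔlaeA on glucose also fell just below the fold threshold, at -0.9999, without any 1 of 5 libraries of other groups. Uncalled values changed sign without single libraries, running from -0.50 to 0.25 (Δgrf-1), -0.26 to 0.49 (Δgrf-2), -0.46 to 0.29 (Δgrf-3), -0.29 to 0.0418 (ΔlaeA against WT at 6 d), -0.0521 to 0.70 (WT, 2 d against glucose), and, for ΔlaeA minus WT, -0.34 to 0.41 (2 d against glucose) and -0.58 to 0.0530 (4 d against 2 d). The cause was not tested. Of lists in Δcre-1, 7 regulators fell with unscaled totals (main 3), 2 rose without WT glucose replicate 1 (main 1), and the 1 glycoside hydrolase gene that rose was no longer counted when 10 CPM in 2 libraries was asked. Of 26 called results of other named genes, 17 were called in every alternative. xlnR, uncalled, changed sign in Δcre-1 with unscaled totals (-0.51) and ran from -0.18 to 0.42 with libraries left out, and from -0.0419 to 0.17 in ΔlaeA against WT at 2 d. In the fit of only the groups compared, clr-2 (-4.97), xlnR (-4.32) and cdt-2 (-5.91) were not called in WT between 4 d and 6 d.

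Deviations of same-numbered libraries correlated at -0.21 to 0.28 over 55 pairs of groups (median -0.00), over 0.1 in 8 pairs and under -0.1 in 9. No pairing common to all groups was seen, but such correlations cannot exclude a batch shared by some of them. With the replicate number as a block, no call of cre-1 changed, with 1.95 for Δcre-1 against WT and 1.08 for ΔlaeA minus WT between 4 d and 6 d. Of the 5 genes most like cre-1, 1 (Spearman), 0 (12 groups), 2 (libraries) and 2 (unscaled totals) stayed, and of the least like 1, 0, 4 and 0. With 2 libraries a group, fold changes near the threshold cannot be placed on one side of it.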
